A study of Arabidopsis thaliana with 18 samples.

Results

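A set of 82 Arabidopsis thaliana genes had transcript levels on the same side of the control in every library of plants given lanthanum (La) or ytterbium (Yb), in roots and in shoots alike. Of these, 43 were higher and 39 lower in exposed plants. They were picked out of 28991 genes by the measured values themselves: a control mean of at least 10 in both tissues, all 6 exposed libraries of a tissue above or all below its 3 control libraries, and the same direction in roots and shoots. Of 17472 genes over the control minimum in both tissues, 87 met these conditions, and 5 well known iron genes among them (IMA1, IMA2, OPT3, FRO3 and FER1) were left out. A ranking by the smaller of the root and shoot differences would have kept the first 100, so no gene was lost to that limit. Because the choice used every exposed and control library, the differences between exposed plants and controls are given as description. Counts of members called against the controls are printed near the end, and nothing is read from them.

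The exposed groups were Col-0 plants 6 weeks old kept for 72 h with 5 µM La or 5 µM Yb, each supplied as its chloride in hydroponic culture, and the controls were plants of the same age and time without either element. Phosphate was missing from the solution of all groups, the controls included. Each library held RNA of 3 pooled plants, and there were 3 libraries for each of the 6 groups (La roots, Yb roots, control roots, La shoots, Yb shoots and control shoots), 18 in all. The labels do not tell if replicates came from different containers, so the p-values measure the spread between these libraries, which may be partly technical.

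La is a light and Yb a heavy member of the rare earth elements, metals that plants take up but are not known to need. Iron, by contrast, is required for chlorophyll synthesis, electron transport and redox enzymes, and plants sense its supply in leaves as well as in roots. When iron runs short, transcription factors of the basic helix-loop-helix family, which bind E-box and G-box sequences, raise genes of uptake and of long-distance transport, while genes of iron storage and of some iron enzymes are turned down. Nicotianamine, a small chelator, carries iron and zinc through the phloem and between cells.

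Values below are normalised read counts: reads of a gene divided by the size factor of the library. They are not divided by gene length and were scaled separately in roots and shoots, so they are compared between libraries of 1 tissue for 1 gene. A difference from control is log2((exposed mean + 0.5) / (control mean + 0.5)), over the 6 exposed libraries of both elements unless said otherwise. Root libraries held 12797264 to 16221846 reads in genes and shoot libraries 12442357 to 16345602, as recovered from the values. Root library Yb 3 stood apart from the other exposed roots. For 39 of the 82 members it was the exposed root library nearest to the controls, and its median difference over the members, counted in each member's own direction, was 0.37 on the log2 scale, against 0.55 to 0.70 in the other 5 exposed root libraries. Without Yb 3, 132 genes met the conditions of choice, the left-out iron genes not counted, and all 82 members were among them.

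Markers of other tissue were checked in both organs. In roots, 13 genes of green tissue, such as light-harvesting proteins, summed to 882.4 to 1199.9 in La libraries. The sums were 433.1 to 1457.2 in Yb and 542.8 to 978.3 in control roots. In shoots these green markers summed to 758308.6 to 863700.5 with La, 701864.9 to 773141.5 with Yb and 783103.4 to 964967.3 in controls. Every Yb shoot library was thus below every control shoot library, and the part of this in the shoot differences was not tested. Genes of root hairs and of the Casparian strip (14 markers) summed to 2851.6 to 4990.6 in La, 4770.2 to 10587.7 in Yb and 7251.2 to 10885.7 in control roots. In shoots the same 14 summed to 114.0 to 144.5 with La, 102.7 to 142.6 with Yb and 88.2 to 143.4 without either, with the root hair genes EXPA7, EXPA18 and RHD6 among those at 0 in all shoot libraries. The 8 flower genes checked summed to at most 30.5 in any library. Root libraries Yb 1 (5985.1) and Yb 2 (4770.2) were also below every control root in these markers, while Yb 3 (10587.7) lay within the control range. The lower root markers in La, Yb 1 and Yb 2 roots move with the root differences below, and their part in them was not tested. In whole organs, fewer cells of a type and less RNA per cell cannot be told apart.

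Most of the differences were moderate and larger in roots. The median size of the difference was 0.61 in roots and 0.30 in shoots on the log2 scale, beside 0.14 and 0.08 over all 17472 genes. In 63 members the root difference was the larger, in 19 the shoot difference. Only 2 members, the uncharacterised AT5G05250 and the beta-glucosidase gene DIN2, passed a log2 difference of 1 in both tissues. Another count, of members past 0.5 in both, came to 21, and 23 members stayed under 0.2 in at least 1 tissue. At the lower end of the ranking stood BLI, a partner of Polycomb proteins, with -0.10 in roots and -0.08 in shoots. As background, 6.15% of 20981 genes tested in both tissues had all exposed roots above the controls and 4.54% all below, and in shoots 2.11% and 2.27%. A further 32 genes met the same conditions with opposite directions in the organs, 19 of them higher in exposed roots and lower in exposed shoots. Near the control minimum, the members with the lowest control means were ATCG00630 (11.8, roots), AT2G18370 (12.3, shoots) and PMDH2 (12.6, roots), and the first genes left outside were AT5G64990 (9.32), BTSL1 (8.61) and AT4G23680 (5.49), all in shoots.

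**Figure D1:**
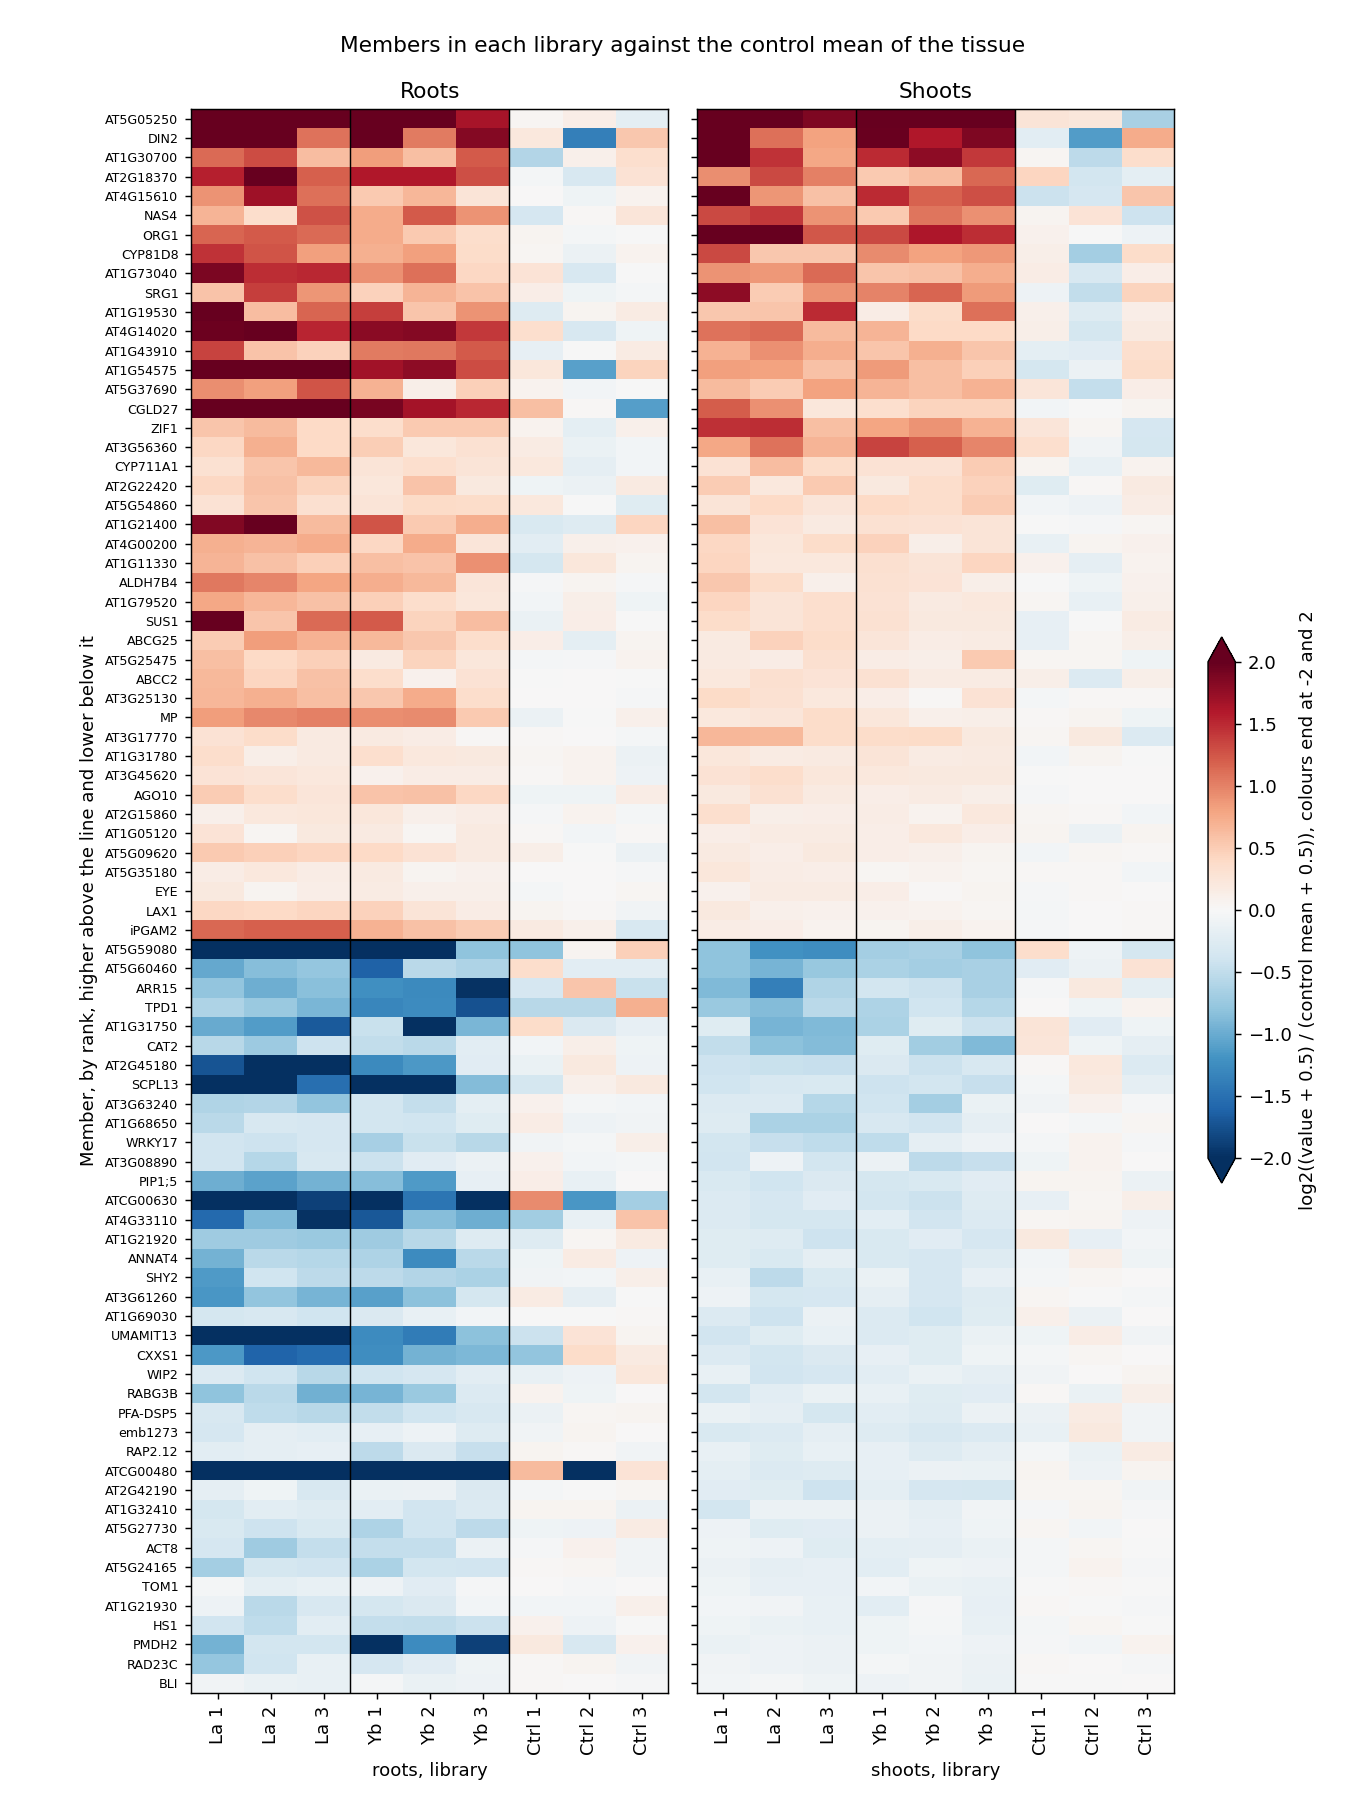
Each row is 1 of the 82 members and each column 1 library, with La, Yb and control libraries from left to right in roots (left panel) and shoots (right panel). Colour gives log2((value + 0.5) / (control mean + 0.5)), red above and blue below the control mean of the tissue, with the scale ending at -2 and 2. Root library Yb 3 is paler than the other exposed root libraries, and shoots are paler than roots.

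**Figure D2:**
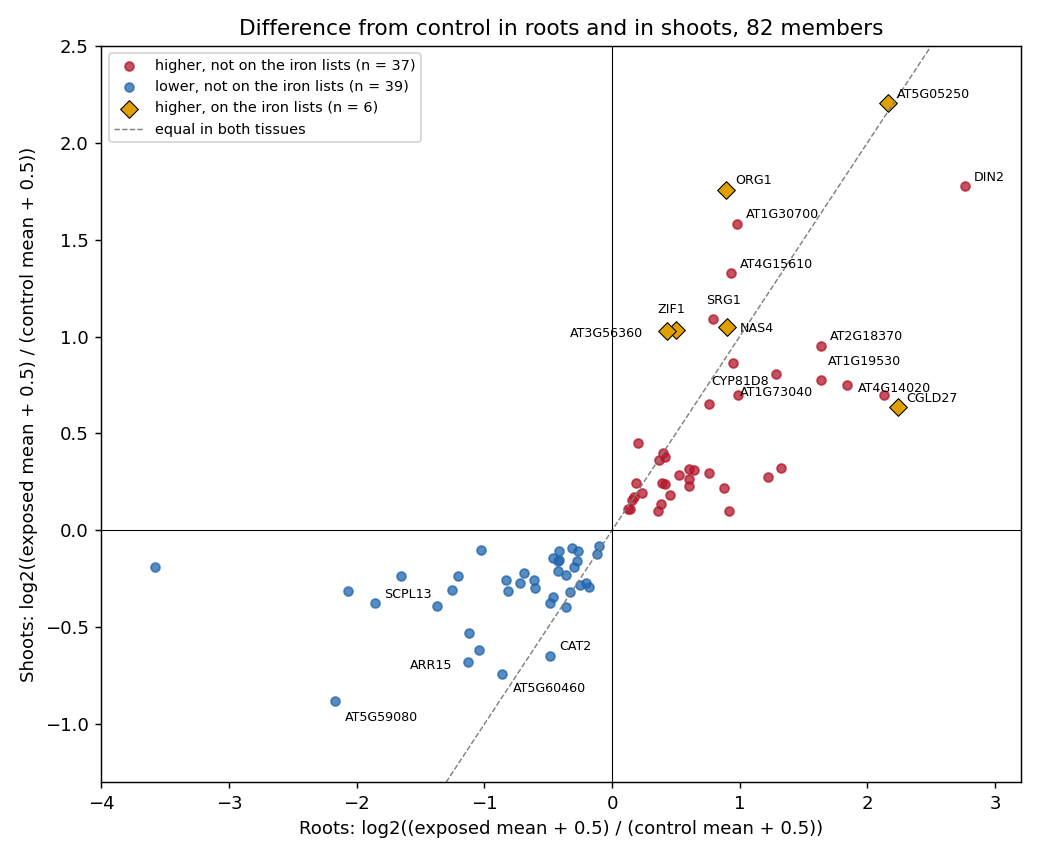
Each point is a member, placed by its log2 difference from control in roots (x axis) and shoots (y axis), over the 6 exposed libraries of both elements. The 6 members on the iron lists (yellow diamonds) lie in the upper right, 5 of them above the dashed line of equal differences, while 63 of the 82 members differ more in roots.

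Of the 82 members, 6 were on lists of genes known for iron uptake, transport or response to iron supply, and all 6 were higher in exposed roots and shoots. They were AT5G05250, CGLD27, ORG1, NAS4, ZIF1 and AT3G56360. NAS4 and ZIF1 came from a list of 33 genes of iron uptake and transport. The other 4 came from a list of 8 further genes known to follow iron supply. The lists of iron regulators and of iron storage held 0 members, with IMA1, IMA2 and FER1 left out. The uncharacterised AT5G05250 ranked first of all members. It had 498, 766 and 504 in La roots, 548, 469 and 368 in Yb roots and 121, 128 and 102 in control roots, and 1764, 2027 and 1210.3 in La shoots, 1318, 1507 and 1332 in Yb shoots and 396, 385 and 212 in control shoots. The difference was 2.16 in roots and 2.20 in shoots, and every exposed library lay far above the highest control. CGLD27, whose protein is conserved in green plants and diatoms, had 69.6, 107 and 86.4 in La roots, 52.4, 44.7 and 39.9 in Yb roots and 21.1, 13.9 and 6.17 in control roots, with every La value above every Yb value. Its shoot values were 2077, 1695 and 1051 in La shoots, 1135, 1226 and 1223 in Yb shoots and 870.2, 893 and 939 in control shoots, where La 3 was below the Yb libraries. The difference was 2.24 in roots and 0.64 in shoots.

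ORG1, named for its response to the transcription factor OBP3, had 1302, 1359 and 1264 in La roots, 971, 835 and 739 in Yb roots and 599, 562 and 577 in control roots, so the 3 groups did not overlap. In shoots it had 5170.3, 4879 and 2464 in La shoots, 2611, 3192 and 2896 in Yb shoots and 1115, 1043 and 977 in control shoots, a difference of 1.76 beside 0.90 in roots. NAS4 encodes a nicotianamine synthase, and ZIF1 a carrier of the vacuole membrane that handles nicotianamine and zinc. NAS4 had 47.5, 37.6 and 72.0 in La roots, 49.6, 69.5 and 55.3 in Yb roots and 23.3, 29.9 and 34.9 in control roots, where La 2 came close to the highest control. Its shoot values were 614, 655 and 460.2 in La shoots, 353, 515 and 461 in Yb shoots and 256, 296 and 185 in control shoots, and the differences were 0.90 in roots and 1.05 in shoots. ZIF1 had 660.4, 695 and 596 in La roots, 578, 645 and 648 in Yb roots and 475, 393 and 484 in control roots, and 955, 964 and 523 in La shoots, 599, 647 and 559 in Yb shoots and 406, 354 and 274 in control shoots. The ZIF1 difference was 0.50 in roots and 1.04 in shoots, where 2 of the La libraries stood above the rest. AT3G56360, an uncharacterised gene, had 1363, 1675 and 1345 in La roots, 1437, 1200.2 and 1257 in Yb roots and 1147, 931 and 989.7 in control roots, a difference of 0.43. In shoots its values were 1979, 2458 and 1842 in La shoots, 2938, 2626 and 2259.6 in Yb shoots and 1459, 1098 and 899.6 in control shoots, a difference of 1.03. Library La 3 was the lowest exposed shoot library for 5 of these 6 genes, NAS4 being the exception.

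**Figure D3:**
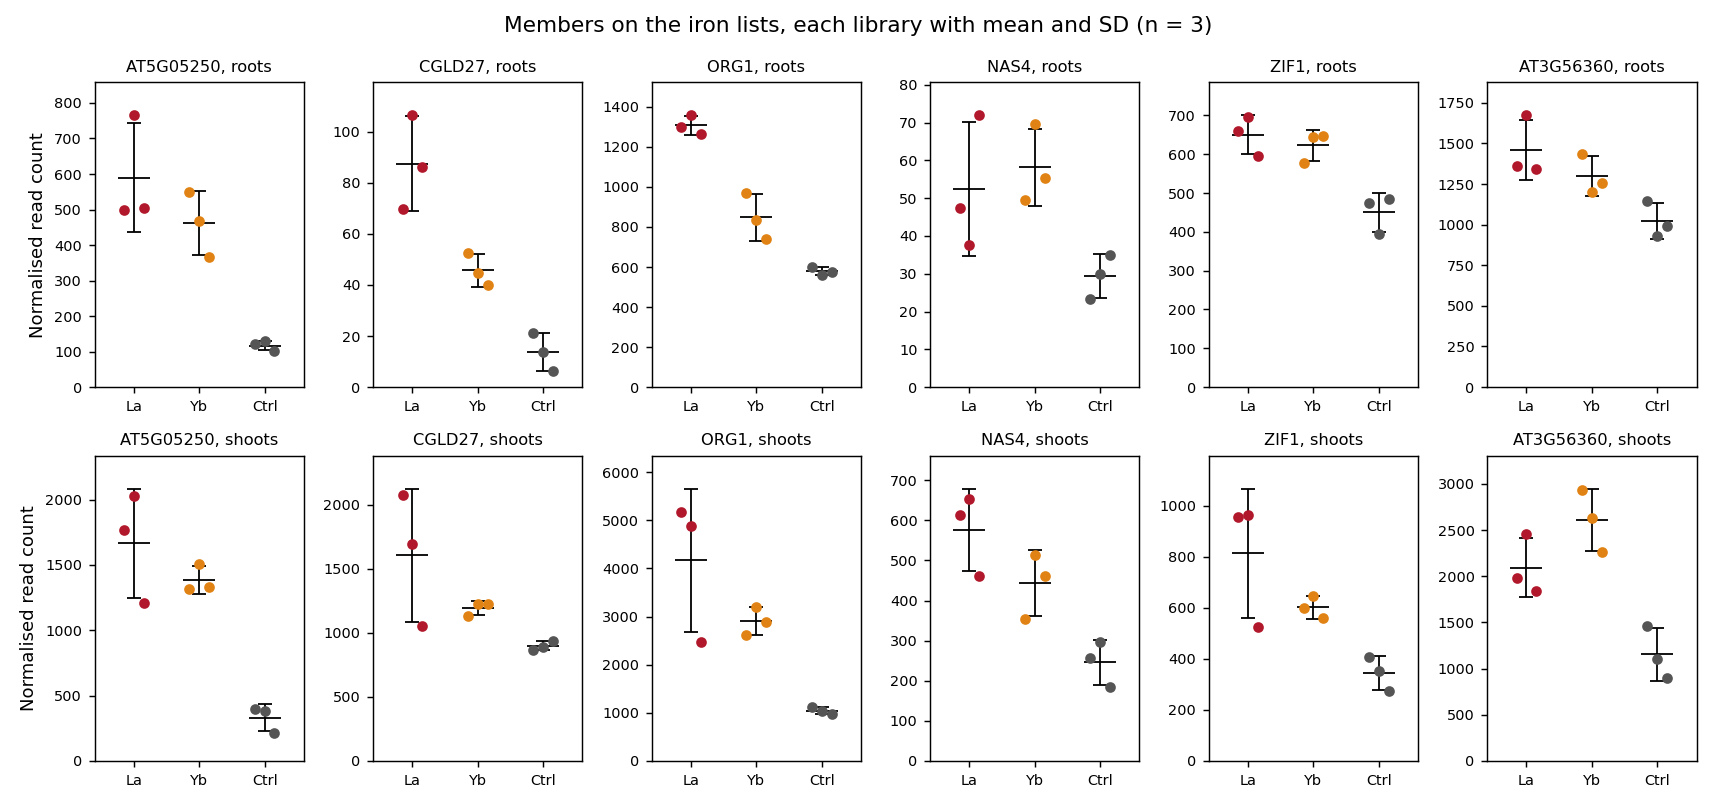
Normalised read counts of the 6 members on the iron lists in roots (top) and shoots (bottom), with 1 point per library and the mean with SD as bars (n = 3 per group). Every exposed point lies above every control point in its panel, and La, Yb and control roots separate fully for ORG1 and CGLD27.

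The iron lists held 84 genes and were drawn up with earlier results of these data known. The 6 members and the 11 genes named to be left out are among them and were picked on the exposed and control values, so the counts are given over the other 67 genes. Taking out genes picked in this way lowers the counts, which are no measure of the lists as a whole. Over the whole lists 28 of 78 tested genes rose and 7 fell in La roots, and 6 rose and 0 fell in Yb roots. Of the other genes, 16 of 62 tested rose and 5 fell in La roots against the controls. Over all genes tested there, 9.41% rose and 9.51% fell (limma, Benjamini-Hochberg adjusted p below 0.05). In Yb roots 0 of 62 passed, beside 0.871% and 0.37% of all genes, and 18 had an unadjusted p below 0.05. By edgeR 0 passed there, beside 1.19% of all genes, and by DESeq2 8 were higher and 3 lower, beside 4.8% called in either direction. In La shoots 1 of 58 rose and 3 fell, beside 0.0228% and 0.0637%. There edgeR called 0 higher and 3 lower, beside 0.0728% of all genes in either direction, and DESeq2 8 higher and 4 lower, beside 0.551%. In Yb shoots 0 of 58 rose and 3 fell, beside 0% and 0.041%, with 18 at an unadjusted p below 0.05. For Yb shoots edgeR called 0 higher and 3 lower, beside 0.0455% of all genes in either direction, and DESeq2 4 higher and 5 lower, beside 0.46%. The median difference of these other genes was 0.24 in La roots, 0.03 in Yb roots, 0.05 in La shoots and 0.01 in Yb shoots, with medians over all genes between -0.003 and 0.002. No gene on the phosphate starvation list (27 genes) and none on the zinc and copper list (21 genes) was a member. Since 82 of 17472 genes were members, a list this short would seldom hold one. Genes that are not members can still move. In La roots, by limma, 2 of 27 phosphate starvation genes rose and 0 fell, and 5 of 21 zinc and copper genes rose and 6 fell. Over all genes there, 9.41% rose and 9.51% fell. In Yb roots 0 of 27 phosphate starvation genes passed and 1 of 21 zinc and copper genes rose, beside 1.24% of all genes called. In shoots 0 of 27 and 0 of 18 passed with either element, beside 0.0865% of all genes with La and 0.041% with Yb.

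G-box sequences, to which basic helix-loop-helix and basic leucine zipper factors bind, were looked up in the 300 bases from 250 before to 50 after each annotated gene start, in RefSeq TAIR10.1. The hexamer CACGTG reads the same on both strands. It was in 10 of 43 promoters of higher members (23.26%) and in 7 of 37 of lower members (18.92%), beside 8.87% of 17432 promoters of genes over the control minimum. Of the 6 iron-list members 3 held it. The wider E-box CANNTG, which contains the G-box, was in 67.44% of higher and 56.76% of lower members, beside 62.02% of all. ACGTGG, a core of abscisic acid elements that can overlap a G-box by 5 bases, was in 20.93% and 16.22%, beside 10.71%. In the higher members 8 of its 17 matches overlapped a G-box. W-boxes (TTGACC or TTGACT), bound by WRKY factors, were in 32.56% and 35.14% beside 32.33%. The evening element AATATCT was in 16.28% and 13.51% beside 11.67%. GNATATNC, the binding site of phosphate starvation regulators, was in 6.98% and 2.7% beside 6.32%. A match describes these letters and is not a measured binding site.

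Stretches upstream of the gene start are shown for 4 higher and 2 lower members, since the hexamer was found in members of both directions. They are written on the strand of the gene, 5′ to 3′, with the G-box in capitals. The AT5G05250 stretch, at chr5:1558487-1558563 on the minus strand, ends at the base before the gene start and holds 2 G-boxes, which begin 52 and 24 bases before that start. The AT3G56360 stretch is at chr3:20896103-20896158 on the plus strand, that of CYP81D8 at chr4:17571906-17571961 and that of ABCG25 at chr1:27088320-27088375, both on the minus strand. The stretches of the lower members are at chr1:25775645-25775700 on the plus strand for AT1G68650 and at chr1:7706338-7706393 on the minus strand for AT1G21920.
AT5G05250: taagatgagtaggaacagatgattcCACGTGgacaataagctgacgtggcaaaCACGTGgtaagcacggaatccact
AT3G56360: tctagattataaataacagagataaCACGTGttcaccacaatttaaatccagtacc
CYP81D8: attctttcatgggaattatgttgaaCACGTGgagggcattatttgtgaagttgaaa
ABCG25: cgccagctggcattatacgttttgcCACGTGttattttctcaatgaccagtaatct
AT1G68650: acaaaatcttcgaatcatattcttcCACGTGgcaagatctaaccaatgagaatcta
AT1G21920: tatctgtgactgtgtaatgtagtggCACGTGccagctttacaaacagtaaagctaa

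The other members were grouped by function after their values had been seen, so the groups are an order of description only. Of 8 genes of carbon metabolism and senescence 7 were higher in exposed plants. DIN2 encodes a beta-glucosidase induced by darkness and sugar starvation, and had 372, 884 and 94.1 in La roots, 217, 91.3 and 159 in Yb roots and 51.0, 16.9 and 64.7 in control roots. In shoots it had 364, 128 and 105 in La shoots, 236, 181 and 219 in Yb shoots and 51.4, 27.3 and 100.1 in control shoots. The differences were 2.76 in roots and 1.78 in shoots, with a wide spread among La libraries and little room between the lowest exposed and the highest control shoot. SRG1, a senescence-related dioxygenase gene, had 134, 236 and 166 in La roots, 124, 145 and 134 in Yb roots and 98.7, 84.7 and 87.4 in control roots, and 105, 42.8 and 56.1 in La shoots, 60.0, 67.5 and 54.0 in Yb shoots and 27.7, 21.0 and 40.9 in control shoots. Its differences were 0.79 and 1.09 in roots and shoots, with La 2 in shoots just above the highest control. SUS1, which splits sucrose, had 9184, 2649.7 and 3959 in La roots, 4221, 2453 and 2755 in Yb roots and 1635, 1979.9 and 1782 in control roots, with La 1 far above all others. In shoots SUS1 had 2489.8 to 2705 in La shoots, 2382 to 2587 in Yb shoots and 1856 to 2347 in control shoots, a difference of 0.28.

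AT1G21400 encodes a subunit of the enzyme that breaks down branched-chain keto acids, a step of carbon supply from amino acids. It had 135, 162 and 57.6 in La roots, 89.6, 53.6 and 61.4 in Yb roots and 29.9, 30.9 and 50.4 in control roots, a difference of 1.32, and 807 to 1087 in La shoots, 855 to 889 in Yb shoots and 704 to 734 in control shoots, a difference of 0.32. The glycolytic phosphoglycerate mutase gene iPGAM2 had 2226, 2307 and 2300.0 in La roots, 1642, 1509 and 1434 in Yb roots and 1140.3, 1081 and 806 in control roots, so that La, Yb and control roots did not overlap. The iPGAM2 difference was 0.92 in roots, but only 0.10 in shoots, where it had 1880.0 to 1997 in La shoots, 1854 to 1941 in Yb shoots and 1758 to 1816 in control shoots. ALDH7B4, a stress-induced aldehyde dehydrogenase, differed by 0.76 in roots and 0.29 in shoots, and the dihydroxyacetone kinase gene AT3G17770 by 0.20 and 0.45. The lower member of the group, PMDH2, encodes a malate dehydrogenase of peroxisomes and had 10077, 10225 and 10188 in La shoots, 10349.7, 10557 and 10268 in Yb shoots and 10815, 10638 and 11592 in control shoots, a difference of -0.10. In roots it had low values of 6.33, 9.61 and 9.60 in La roots, 1.91, 4.96 and 3.07 in Yb roots and 14.4, 9.96 and 13.4 in control roots. Of the senescence and sugar starvation list (25 genes), DIN2 was the single member. That list too was drawn up with earlier results of these data known, and DIN2 was picked on these values, so its counts are a description. With DIN2 included, 11 of 23 tested genes rose and 1 fell in La roots, beside 9.41% and 9.51% of all genes. In Yb roots 3 rose and 1 fell, beside 0.871% and 0.37%. In shoots 0 of 25 passed by limma with either element, where 0.0865% of all genes passed with La and 0.041% with Yb, with 8 at an unadjusted p below 0.05 in La and 5 in Yb shoots. By edgeR 0 passed as well, and by DESeq2 2 were lower in La shoots and 0 passed in Yb shoots. DESeq2 called 0.551% of all genes in La shoots and 0.46% in Yb shoots.

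Of 6 redox and detoxification genes 4 were higher and 2 lower. CYP81D8, a cytochrome P450 gene induced by many chemicals, had 176, 155 and 115 in La roots, 107, 114 and 84.0 in Yb roots and 66.6, 59.8 and 67.8 in control roots, with differences of 0.95 in roots and 0.86 in shoots. AT1G30700, of the berberine bridge enzyme family, had 1186, 1343 and 831 in La roots, 964, 818 and 1275 in Yb roots and 360.5, 581 and 683 in control roots, a difference of 0.98. In shoots, where it is weakly expressed, it had 86.6, 50.9 and 31.7 in La shoots, 52.3, 64.6 and 49.6 in Yb shoots and 18.8, 12.6 and 23.7 in control shoots, a difference of 1.58. ABCC2, a vacuolar pump for glutathione conjugates and phytochelatins, differed by 0.41 and 0.24 in roots and shoots, and the peroxidase gene AT2G22420 by 0.41 and 0.38. CAT2, the catalase that removes hydrogen peroxide of photorespiration, was lower in every exposed library. It had 2379, 2129.9 and 2621 in La roots, 2501, 2405 and 3022 in Yb roots and 3385, 3823 and 3309 in control roots, and 1986, 1581 and 1529.8 in La shoots, 2385, 1738 and 1524 in Yb shoots and 3306, 2636 and 2476 in control shoots. The CAT2 difference was -0.48 in roots and -0.65 in shoots, with library Yb 1 next to the controls in shoots. CXXS1, a thioredoxin-like gene, differed by -1.20 in roots and -0.24 in shoots. Of the 22 genes of the oxidative stress list, CAT2 was the single member. This list was likewise drawn up with earlier results known, and CAT2 was picked on these values, so its counts are a description. With CAT2 included, 10 of 21 tested genes rose and 2 fell in La roots, beside 9.41% and 9.51% of all genes. By limma 0 of 21 passed in Yb roots, beside 1.24% of all genes, and 0 in La and Yb shoots, beside 0.0865% and 0.041%. At an unadjusted p below 0.05 there were 8 in Yb roots, 5 in La shoots and 9 in Yb shoots. By edgeR 0 passed in these 3 comparisons. By DESeq2 6 were higher and 1 lower in Yb roots, 2 lower in La shoots, and 1 higher and 1 lower in Yb shoots. DESeq2 called 4.8%, 0.551% and 0.46% of all genes in these comparisons, in the same order.

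Hormone genes made up 6 members. ARR15, a repressor of cytokinin signalling that cytokinin itself induces, had 16.9, 14.9 and 16.3 in La roots, 12.4, 11.9 and 7.17 in Yb roots and 23.3, 43.8 and 21.6 in control roots, with control 2 above the other controls. In shoots it had 71.8, 50.9 and 86.8 in La shoots, 102, 98.3 and 84.5 in Yb shoots and 129.5, 152 and 115 in control shoots. Its differences were -1.13 in roots and -0.68 in shoots. Among auxin genes, the transcription factor gene MP (ARF5) had 778, 853 and 873 in La roots, 833, 841 and 627 in Yb roots and 404, 435 and 469 in control roots, a difference of 0.88, while SHY2 (IAA3), a repressor of auxin response, had 286, 475 and 434 in La roots, 436, 417 and 402 in Yb roots and 595, 599 and 681 in control roots, a difference of -0.61. Their shoot differences were 0.22 for MP and -0.26 for SHY2. The auxin import carrier gene LAX1 differed by 0.36 and 0.10 in roots and shoots. CYP711A1 (MAX1), an enzyme of strigolactone synthesis, had 579 to 731 in La roots, 559 to 588 in Yb roots and 413 to 541 in control roots, and 183 to 229 in La shoots, 183 to 214 in Yb shoots and 135 to 158 in control shoots, a difference of 0.40 in both tissues. ABCG25, an exporter of abscisic acid, had 666, 833 and 759 in La roots, 735, 683 and 600.0 in Yb roots and 514, 407 and 484 in control roots, a difference of 0.60 beside 0.26 in shoots. No gene of the list of abscisic acid and water deficit responses was a member, though by limma 6 of its 20 tested genes rose and 1 fell in La roots, beside 9.41% and 9.51% of all genes. In Yb roots 1 of 20 rose and 1 fell, beside 0.871% and 0.37%. In shoots 0 of 19 passed with either element, beside 0.0865% of all genes with La and 0.041% with Yb.

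Secreted and cell surface proteins were encoded by 8 members, 5 of them higher. AT4G14020, annotated in the family of rapid alkalinization factor peptides, had 448, 572 and 330.2 in La roots, 401, 409 and 305 in Yb roots and 144, 91.6 and 108 in control roots. In shoots it had 759, 789 and 559 in La shoots, 574, 475 and 471 in Yb shoots and 389, 281 and 406 in control shoots, and the differences were 1.84 in roots and 0.75 in shoots. The lipid-transfer family gene AT2G18370 had 3264, 5433 and 2543 in La roots, 3357, 3365 and 2707 in Yb roots and 1080.4, 884 and 1351 in control roots, a difference of 1.64, with low shoot values of 23.9, 31.6 and 25.4 in La shoots, 18.0, 19.3 and 27.9 in Yb shoots and 16.8, 9.45 and 10.8 in control shoots. AT4G15610, which encodes a CASP-like membrane protein, had 1953, 3409.8 and 2255 in La roots, 1504, 1659 and 1262 in Yb roots and 1062, 994 and 1099 in control roots, with La above Yb and Yb above the controls. Its shoot values were 129.9, 57.0 and 46.5 in La shoots, 87.5, 70.3 and 75.8 in Yb shoots and 22.7, 24.1 and 45.2 in control shoots, where La 3 barely passed the highest control. The AT4G15610 differences were 0.93 in roots and 1.33 in shoots. AT1G73040, a mannose-binding lectin gene, had 157, 119 and 121 in La roots, 80.1, 91.3 and 56.3 in Yb roots and 51.0, 33.9 and 42.1 in control roots, and 141, 138 and 167 in La shoots, 111, 114 and 126 in Yb shoots and 84.0, 60.9 and 82.9 in control shoots. Its differences were 1.29 in roots and 0.81 in shoots. AT1G11330, a lectin receptor kinase gene, differed by 0.64 and 0.31 in roots and shoots.

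On the lower side, TPD1, a small secreted protein known from anther development, had 180.1, 165 and 206 in La shoots, 196, 228 and 202 in Yb shoots and 304, 282 and 317 in control shoots, a difference of -0.62. In roots it was close to the control minimum, with means of 8.64 ± 0.91 in La roots, 5.26 ± 1.01 in Yb roots and 14.9 ± 8.48 in control roots (SD, n = 3 each), where La 1 was just under controls 1 and 2. SCPL13, a serine carboxypeptidase-like gene, had 12.7, 8.74 and 20.2 in La roots, 12.4, 8.93 and 31.7 in Yb roots and 45.5, 62.7 and 66.8 in control roots, a difference of -1.85, and 851 to 912 in La shoots, 816 to 868 in Yb shoots and 995 to 1278 in control shoots, a difference of -0.38. AT2G45180, another lipid-transfer family gene, had 140.3, 48.1 and 91.2 in La roots, 193, 209 and 396 in Yb roots and 425, 535 and 435 in control roots, where Yb 3 lay next to the controls. Its shoot values were 4628 to 4755 in La shoots, 4730.2 to 5234 in Yb shoots and 5284 to 7327 in control shoots, and its differences were -1.37 in roots and -0.39 in shoots.

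Channels and transporters numbered 5. The plasma membrane aquaporin gene PIP1;5 had 1536, 1449 and 1566 in La roots, 1682, 1376 and 2711 in Yb roots and 3308, 2728 and 3057 in control roots, so that Yb 3 was level with the lowest control while the other exposed libraries were far lower. In shoots PIP1;5 had 865 to 929.9 in La shoots, 891 to 967 in Yb shoots and 1046 to 1186 in control shoots, and the differences were -0.82 in roots and -0.31 in shoots. UMAMIT13, of a family of amino acid transporters, had 14.8, 7.86 and 13.4 in La roots, 28.6, 25.8 and 38.9 in Yb roots and 51.0, 83.7 and 71.9 in control roots, with all La values below all Yb values. In shoots it had 479.8, 528 and 565 in La shoots, 516, 532 and 569 in Yb shoots and 588, 693 and 600.4 in control shoots, a difference of -0.24 beside -1.65 in roots. AT1G68650, of the uncharacterised membrane protein family UPF0016, had 271 to 314 in La roots, 297 to 333 in Yb roots and 365 to 437 in control roots, and 119.5 to 155 in La shoots, 143 to 164 in Yb shoots and 181 to 192 in control shoots. It differed by -0.36 in roots and -0.40 in shoots. The cation efflux gene AT1G79520 was higher, by 0.53 in roots and 0.28 in shoots, as was the major facilitator gene AT5G54860, by 0.36 and 0.36.

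**Figure D4:**
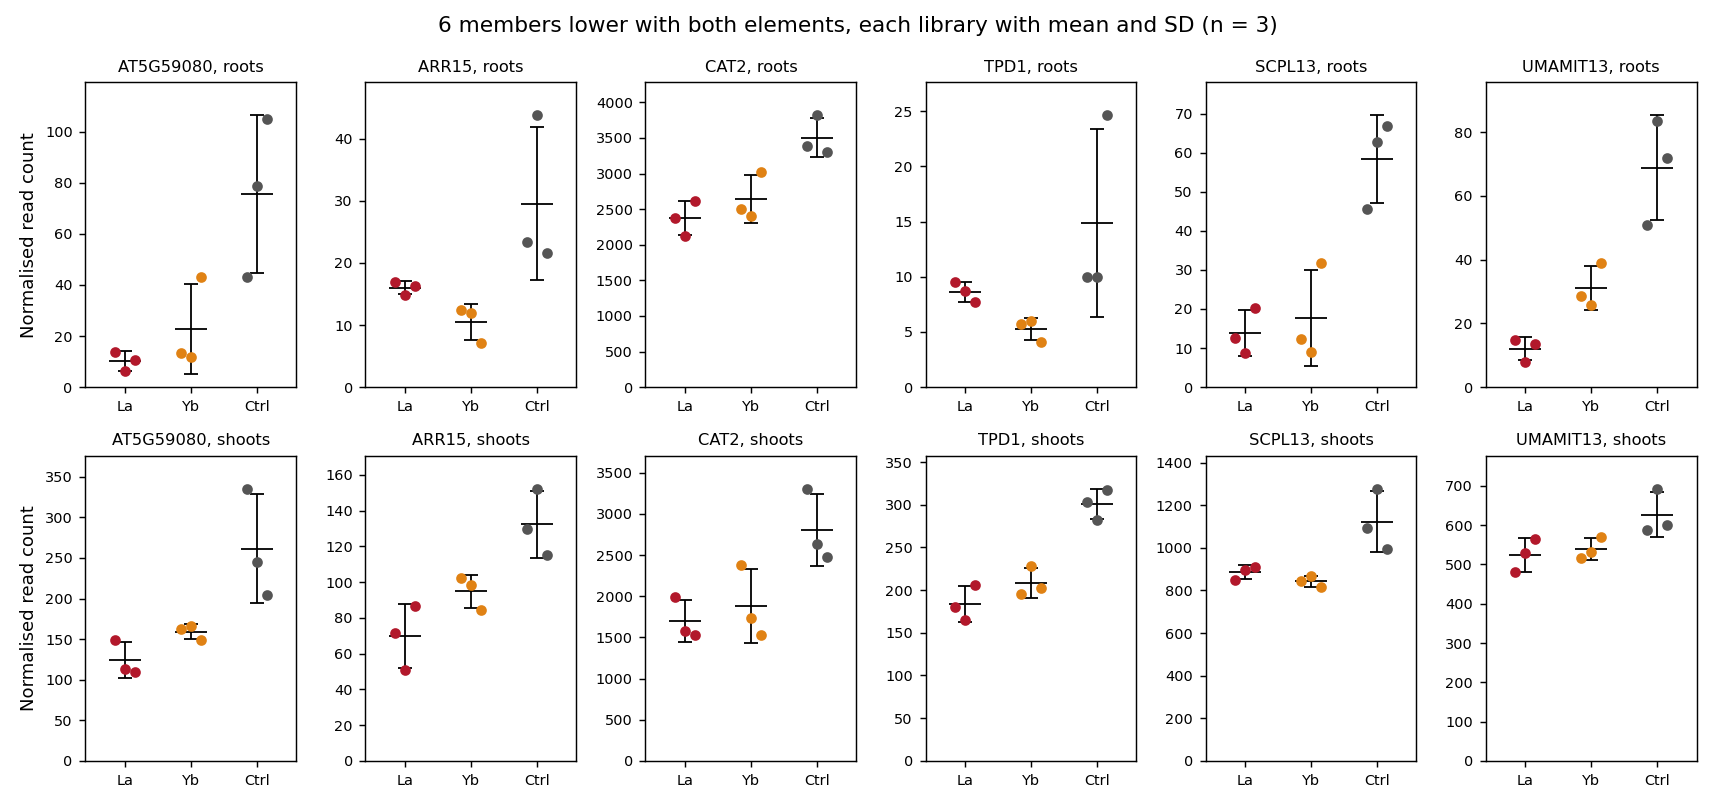
Normalised read counts of 6 members lower with both elements, in roots (top) and shoots (bottom), with 1 point per library and the mean with SD as bars (n = 3 per group). Exposed points lie below all control points in each panel. In roots Yb 3 is the exposed point nearest to the controls for AT5G59080, CAT2, SCPL13 and UMAMIT13.

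Membrane traffic and the cytoskeleton were represented by 8 members, 6 of them lower, all with small shoot differences of -0.27 to 0.19. The actin gene ACT8 had 7841 to 10202 in La roots, 9231 to 11887 in Yb roots and 12252 to 13644 in control roots, a difference of -0.42, and -0.16 in shoots. RABG3B, a GTPase of traffic to the vacuole, differed by -0.69 and -0.22, the remorin gene AT3G61260 by -0.83 and -0.26, and the annexin gene ANNAT4 by -0.72 and -0.27, each in roots and then shoots. WIP2, of the nuclear envelope, and AT1G32410, of the vacuolar sorting family VPS55, were also lower. The higher members of the group were AT1G31780 and EYE, which both encode subunits of the conserved oligomeric Golgi complex, a tether of Golgi vesicles. AT1G31780 had 649 to 761 in La roots, 684 to 757 in Yb roots and 551 to 625 in control roots, and 474 to 496 in La shoots, 478 to 506 in Yb shoots and 410.4 to 439 in control shoots. EYE had 907 to 1006 in La roots, 936 to 984 in Yb roots and 851 to 897 in control roots, and 595 to 627 in La shoots, 566 to 614 in Yb shoots and 546 to 564 in control shoots. These are differences of 0.24 and 0.12 in roots and of 0.19 and 0.11 in shoots.

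Gene regulators counted 8, with 4 higher and 4 lower. WRKY17, a negative regulator of defence, had 837, 821 and 867 in La roots, 690.0, 807 and 748 in Yb roots and 1039, 1061 and 1185 in control roots, a difference of -0.46 beside -0.34 in shoots. RAP2.12, an ethylene response factor that controls hypoxia genes, had 3663, 3773 and 3801 in La roots, 2962, 3498 and 3101 in Yb roots and 4408, 4308 and 4069 in control roots, with all Yb values below all La values, a difference of -0.30 beside -0.19 in shoots. AGO10, an Argonaute protein that sequesters microRNAs in meristems, had 647, 578 and 538 in La roots, 672, 683 and 608 in Yb roots and 428, 430.2 and 505 in control roots, a difference of 0.45, and 0.18 in shoots. The AT-hook gene AT4G00200 and the B3 factor gene AT5G25475 were higher in roots by 0.60 and 0.39, the helicase gene AT1G05120 by 0.16. AT1G21920, of a histone methyltransferase family, differed by -0.61 in roots and -0.30 in shoots.

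Among members outside these groups, the uncharacterised AT5G59080 was the highest-ranked of the lower members. It had 13.7, 6.12 and 10.6 in La roots, 13.3, 11.9 and 43.0 in Yb roots and 43.3, 78.7 and 105 in control roots, where Yb 3 was just under control 1, and 149, 113 and 110.0 in La shoots, 163, 166 and 149 in Yb shoots and 335, 245 and 204 in control shoots. The difference was -2.17 in roots and -0.88 in shoots. AT5G60460, which encodes a beta subunit of the Sec61 protein channel of the endoplasmic reticulum, had 83.3, 94.4 and 98.9 in La roots, 55.3, 117 and 111 in Yb roots and 216, 147 and 146 in control roots, and 38.7, 35.6 and 40.2 in La shoots, 43.7, 42.4 and 43.5 in Yb shoots and 58.3, 63.0 and 83.9 in control shoots. It differed by -0.86 in roots and -0.74 in shoots. AT1G19530 had 6685, 1144 and 1676 in La roots, 1951, 1097 and 1404 in Yb roots and 626, 779 and 844 in control roots, with La 1 far above the others, and 67.2 to 131 in La shoots, 51.4 to 100.1 in Yb shoots and 38.8 to 50.6 in control shoots. The proline-rich gene AT1G31750 differed by -1.12 and -0.53 in roots and shoots, on counts of at most 35.6 in any library. AT3G63240, a DNase-like gene, had 229 to 266 in La roots, 286 to 348 in Yb roots and 384 to 421 in control roots, and AT3G08890 had 196 to 234 in La roots, 216 to 268 in Yb roots and 281 to 308 in control roots. Higher members outside the groups included AT1G54575, with differences of 2.13 and 0.70, AT1G43910, with 0.99 and 0.70, and the esterase family gene AT5G37690, with 0.76 and 0.65, each in roots and then shoots.

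Some members carry a limit on their counts. The chloroplast genes ATCG00630 and ATCG00480 were rare in roots, as ATCG00630 had 2.11, 1.75 and 2.88 in La roots, 1.91, 3.97 and 2.05 in Yb roots and 23.3, 4.98 and 7.19 in control roots. ATCG00480 averaged 9.52 ± 6.46 in La roots, 5.28 ± 6.62 in Yb roots and 93.8 ± 65.2 in control roots (SD, n = 3 each). All reads of chloroplast genes made up 0.0498% and 0.0445% of control root libraries 1 and 3, but 0.0054% of control 2 and 0.0008% to 0.0073% of the exposed root libraries. The root values of both genes move with that share, and its part in them was not tested. In shoots ATCG00630 had 211 to 229.6 in La shoots, 198 to 224 in Yb shoots and 238 to 289 in control shoots and ATCG00480 had 264 to 279 in La shoots, 285 to 296 in Yb shoots and 298 to 331 in control shoots. For 14 members a gene on the other strand overlaps the annotated gene, by 10 to 2321 bases, and for 2 more, RABG3B and EYE, a gene on the same strand does. The libraries were stranded per the labels, but the strand setting of the authors' counting is not given in the sources used here, so reads of partners may be mixed. The longest overlap was that of AT5G59080 with AT5G59070 (2321 bases), whose own counts averaged 39.0 in exposed and 25.3 in control roots, with groups that overlapped. Of the other opposite-strand partners, AT2G26180, beside CYP711A1, had all exposed shoots below the controls (means of 72.9 and 89.8), opposite to the member itself, and the exposed and control values of the rest overlapped in both tissues.

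The 80 members with a RefSeq entry lay on all 5 nuclear chromosomes, with 28, 11, 12, 9 and 20 on chromosomes 1 to 5. Shares of the genes over the control minimum were 0.61%, 0.42%, 0.35%, 0.34% and 0.49%. AT1G21920 and AT1G21930, both lower in exposed plants, were the closest pair, with 2 genes between them.

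La and Yb, given at the same dose and time, were also compared directly. The choice of members did not rank or filter on this difference. It did require both elements on the same side of the controls, which limits how far they can differ. The counts of members below are therefore a description. In roots 4 of 82 members differed between the elements, 3 higher and 1 lower with La, beside 6.45% of 22729 genes tested, of which 2.64% were higher and 3.81% lower (limma on log2(value + 0.5), Benjamini-Hochberg over all genes). ORG1 was higher in La roots than in Yb roots by 0.63 ± 0.10 (SE, adjusted p = 0.011), with no overlap of the groups. iPGAM2 was higher by 0.58 ± 0.12 (adjusted p = 0.0251) and AT4G15610 by 0.75 ± 0.19 (adjusted p = 0.0481), again without overlap. For UMAMIT13 the difference was -1.36 ± 0.31 (adjusted p = 0.0348), its La values all below its Yb values. ORG1 kept its call without each of the 9 root libraries in turn, with adjusted p from 0.0152 to 0.0422, and under every other alternative tried. The ranges were 0.0183 to 0.086 for iPGAM2, 0.0216 to 0.146 for AT4G15610 and 0.0327 to 0.104 for UMAMIT13 when single libraries were left out. The iPGAM2 call held in 4 of these 9 fits, that of UMAMIT13 in 4 and that of AT4G15610 in 1, without La 1. With the 6 libraries compared alone, UMAMIT13 (adjusted p = 0.0774) and AT4G15610 (0.105) did not pass. The count of members called was 1 without La 2, La 3 or Yb 3, beside 1.1% to 2.61% of all genes. It was 2 without Yb 1, Yb 2 or control 3, beside 2.38% to 5.37%.

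In shoots 0 of 82 members differed between the elements by limma, beside 0.0091% of 21967 genes (0.00455% higher and 0.00455% lower), and 4 had an unadjusted p below 0.05. The smallest adjusted p among members was 0.681. DESeq2 and edgeR called 0 members as well, beside 0.385% and 0.0091% of all genes. The 4 were AT4G14020 (0.46 ± 0.17), ARR15 (-0.47 ± 0.19), AT1G73040 (0.34 ± 0.15) and AT5G59080 (-0.37 ± 0.17), none past the adjustment. The 95% intervals of the shoot difference held 0 for 78 members and lay within -1 and 1 for 80 and within -0.5 and 0.5 for 59. In roots 66 intervals held 0, 62 lay within -1 and 1 and 40 within -0.5 and 0.5. Without La 3, 1 member was called in shoots, beside 0.0091% of all genes. Groups of La and Yb values did not overlap for 23 members in roots and 8 in shoots, beside 28.7% and 14% of all genes tested.

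The distance from control was larger with La than with Yb for most members. In 67 of 82 members (81.7%) the La mean was farther from the control mean than the Yb mean in roots, and in shoots this was so for 62 members (75.6%). The choice of members used these distances, so the counts are a description. Among other genes whose exposed values all lay on 1 side of the controls in the tissue, the same order held for 1289 of 1765 (73%) in roots and for 387 of 693 (55.8%) in shoots. Counts without each library in turn ran from 59, without root library Yb 3, to 67 in roots and from 57 to 64 in shoots. The median difference from control of the 43 higher members was 0.71 with La and 0.53 with Yb in roots, and 0.36 and 0.34 in shoots. For the 39 lower members it was -0.56 with La and -0.51 with Yb in roots, and -0.28 and -0.25 in shoots. Over all genes the same medians lay between -0.005 and 0.007. These comparisons with control share the control libraries, so the elements are given side by side and not as independent sets.

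**Figure D5:**
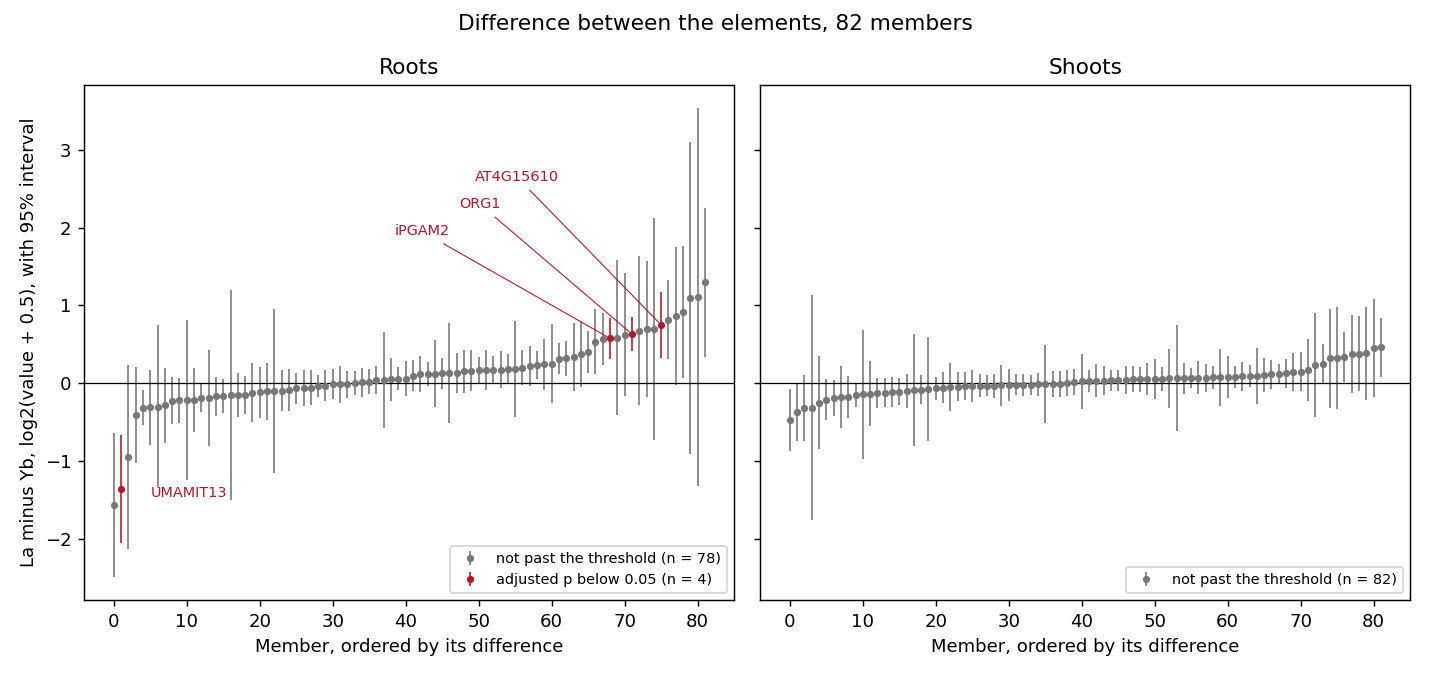
Fitted difference between La and Yb on the log2(value + 0.5) scale for each of the 82 members in roots (left) and shoots (right), ordered by size, with 95% intervals from limma. In roots 4 members (red) pass the adjusted threshold, 3 higher and 1 lower with La, and in shoots no member does.

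Whether the elements differed in another way in roots than in shoots was tested in a fit of all 18 libraries, taken as independent. Root and shoot libraries may come from the same plants, which was neither checked nor modelled. For 2 of 82 members the difference between La and Yb in roots was not that in shoots, beside 1.35% of 20981 genes (0.758% higher and 0.591% lower). For UMAMIT13 the difference in roots minus that in shoots was -1.32 ± 0.30 (adjusted p = 0.04), from -1.36 in roots and -0.04 in shoots. For PMDH2 it was 1.33 ± 0.31 (adjusted p = 0.0495), from higher La than Yb values in roots and a difference of -0.03 in shoots. Its root values were at most 14.4 in any library, and it was not called between La and Yb in roots. The fit shared its spread between roots and shoots. Fitted within each tissue, the SE of the La minus Yb difference was 0.43 in roots and 0.07 in shoots for PMDH2. For UMAMIT13 these SE were 0.31 and 0.09. The adjusted p of UMAMIT13 ran from 0.019 to 0.102 and that of PMDH2 from 0.00646 to 0.128 when single libraries were left out, and the calls held in 6 and 2 of 18 such fits. PMDH2 also did not pass by edgeR (adjusted p = 0.115), by DESeq2 (0.12) or with a pseudocount of 0.1 (0.0565). Green tissue markers in roots, which overlap between the groups as given above, and the low counts of PMDH2 stand beside this result, and their part in it was not tested.

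The limma fits of each element against the controls called 58 members in La roots (35 higher and 23 lower) beside 18.9% of all genes, and 12 in Yb roots (9 and 3) beside 1.24%. In shoots they called 3 members with La beside 0.0865% and 0 with Yb beside 0.041%. With Yb 51 members had an unadjusted p below 0.05, and edgeR called 0 beside 0.0455% and DESeq2 9 beside 0.46%. The 3 in La shoots were AT1G73040, TPD1 and AT5G59080. The choice of members used these contrasts, so nothing is read from the counts. They also moved with single libraries, from 1 to 26 in Yb roots, where 26 were called without Yb 3, 7 without La 3 or control 1, 2 without Yb 2 and 1 without Yb 1, control 2 or control 3. In La shoots they ran from 0 to 10, with 10 called without control 3, 8 without La 3, 1 without Yb 2 and 0 without La 1 or La 2. In Yb shoots 9 were called without control 3, 2 without La 3 and 1 without control 1. The share of all genes called moved as well. Without single libraries it ran from 0.0352% to 5.02% in Yb roots, 0.0137% to 0.455% in La shoots and 0.00455% to 0.756% in Yb shoots.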

How the data were processed

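Libraries of polyA-selected RNA, stranded per the labels, were deposited as 1 table per tissue with 28991 genes and 9 libraries each. The deposited tables are named as RPKM, but every library's values are whole multiples of 1 step common to all genes (100% within 0.001), so they were used as a signal that the authors had divided by 1 size factor per library and not by gene length. Per the submitters' processing notes, Trimmomatic 0.36.1, TopHat2 2.1.1, HTSeq 0.6.1p1 and TAIR10 were used, with no roles or settings stated. The members and gene lists were chosen with earlier results of these data known.

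Genes at 1 or more in at least 3 libraries of a tissue were fitted as log2(value + 0.5) with limma 3.58.1 (R 4.3.3, trended robust moderation, group as factor), two-sided, with Benjamini-Hochberg adjustment over all genes and a threshold of 0.05. The fits were tested on simulated data. Reads recovered from the steps were given to edgeR 4.0.16 and DESeq2 1.42.0. Other alternatives were pseudocounts of 0.1 and 1, other filters, TMM scaling, a replicate block, the 6 libraries compared alone and each library left out. By rule the 12 highest-ranked higher and the 12 highest-ranked lower members were named, with members on the lists, those called between La and Yb and genes next to a limit; other names were chosen after their values were seen. Names, positions and sequences came from RefSeq TAIR10.1, in which 80 of 82 members matched.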

Additional observations from a re-analysis of the deposited data

Results flagged for a closer look

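For UMAMIT13 (AT2G37450) the La minus Yb difference in roots minus that in shoots was -1.32 ± 0.30 on the log2 scale, and this test between the tissues passed the threshold (limma, adjusted p = 0.04). For PMDH2 (AT5G09660) the same test gave 1.33 ± 0.31 (adjusted p = 0.0495), on root values of 6.33 to 9.61 in La roots, 1.91 to 4.96 in Yb roots and 9.96 to 14.4 in control roots. In roots all La values were below all Yb values for UMAMIT13 and above them for PMDH2. When each of the 18 libraries was left out in turn, the UMAMIT13 call held 6 times and the PMDH2 call 2 times. Both calls rest on 1 spread shared by roots and shoots and on root and shoot libraries taken as independent. PMDH2 was not called between La and Yb in roots alone.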

How the results depend on the processing

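The number of genes meeting the conditions of choice, 82 with the left-out iron genes not counted, was 86 to 234 without single libraries, where fewer values have to be met, with 234 without shoot control 3, 148 without shoot control 1, 132 without root library Yb 3 and 124 without root control 2. Of the 82 members, 79 were among 82 genes chosen after TMM scaling, 62 had a control mean of at least 50, and a minimum of 5 gave 85 genes. Members called between La and Yb in roots were 4, 10 with DESeq2 (11.8% of all genes), 2 with the 6 libraries compared alone (2.24%) and 1 to 6 without single libraries (1.1% to 6.49%). In shoots they were 0 to 1 without single libraries (0% to 0.0956%). Without single libraries, 44 to 58 members were called in La against control roots, beside 11.4% to 21.1% of all genes. In La against control shoots they were 0 to 10, beside 0.0137% to 0.455%. There DESeq2 called 17, beside 0.551% of all genes, and the 6 libraries alone 0, beside 0.0319%. In Yb against control roots they were 35 with DESeq2 (4.8% of all genes), 7 with 6 libraries (0.656%) and 1 to 26 without single libraries (0.0352% to 5.02%). In Yb against control shoots they were 9 (0.46%), 1 (0.0592%) and 0 to 9 (0.00455% to 0.756%). Members called between tissues were 1 with a pseudocount of 0.1 (1.22% of all genes) or a mean of at least 10 (1.73%), and 0 to 3 without single libraries (0.3% to 2.14%). No direction of a named result reversed in these fits, and why the counts moved was not tested. The counts of members farther from control with La, recomputed by a choice made after seeing the data, ran from 59 to 67 in roots and from 57 to 64 in shoots.

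Correlations of same-numbered libraries within a tissue ran from -0.125 to 0.182 in roots (1 of 9 pairs above 0.1) and from -0.08 to 0.061 in shoots. With 3 libraries per group these values cannot settle if replicate numbers pair the libraries. Root libraries were not correlated with shoot libraries. With the replicate block 9 members were called in La and 3 in Yb against control shoots, beside 0.223% and 0.155% of all genes, and 1 between tissues, beside 1.33%. In that limma fit UMAMIT13 between La and Yb in roots had an adjusted p of 0.0515.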
